A study of Mus musculus with 8 samples.

Results

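The replication-dependent histone genes are the gene family that supplies the bulk of core and linker histones during DNA synthesis. They were taken as every gene whose symbol begins with Hist1h, Hist2h, Hist3h or Hist4h followed by a histone class, leaving out symbols that end in -ps. This gave 68 of the 35976 genes measured: 6 encode H1, 19 H2A, 18 H2B, 12 H3 and 13 H4. They were compared in C2C12 cells, a mouse skeletal myoblast line whose cells divide in growth medium and fuse into myotubes when they differentiate. Wild-type C2C12 cells carried either a non-targeting shRNA (4 control libraries) or an shRNA against Atad2 (4 Atad2 libraries), and total RNA was taken 48 h after transfection. Atad2 encodes a nuclear AAA ATPase whose bromodomain recognises acetyl-lysine on histones. The labels give neither the hairpin sequences nor a rescue. Nor do they name separate cultures for the 4 libraries per group, so each p-value sets a difference against the spread of these libraries alone, which may be technical.

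Core histones H2A, H2B, H3 and H4 form the protein spool of the nucleosome, and linker histone H1 binds where DNA enters and leaves it. Their replication-dependent genes lie in clusters, mostly lack introns, and are transcribed in S phase with the help of the coactivator NPAT. Their mRNAs usually end not in a poly(A) tail but in a conserved stem-loop that is bound by the stem-loop binding protein SLBP, and both synthesis and decay of the mRNA follow DNA replication. In myoblasts these transcripts mark cycling cells, and cells that leave the cycle to differentiate turn to replacement histones that are made from other genes.

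The stem-loop is the element by which these mRNAs are told apart from others, and it was searched in the annotated transcripts (GENCODE M21, GRCm38) as 16 bases that read GG, NN, CTT, N, T, N, AG, N, GCC in that order, on the transcript strand. It was found in 42 of the 68 genes (61.8%) and in 38 of 55273 other genes (0.0687%). The 6 examples below were chosen from genes whose levels are described further on, and the capitals mark the stem-loop within 5 flanking bases on each side.
Hist1h1c: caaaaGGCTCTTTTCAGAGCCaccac
Hist1h1e: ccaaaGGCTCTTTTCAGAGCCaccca
Hist1h2bb: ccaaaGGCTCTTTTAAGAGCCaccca
Hist1h3a: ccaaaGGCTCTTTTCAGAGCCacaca
Hist1h4a: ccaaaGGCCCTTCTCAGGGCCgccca
Hist1h4d: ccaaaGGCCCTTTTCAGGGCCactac
The same 16 letters stood in Hist1h1c, Hist1h1e and Hist1h3a, in 25 genes in all (3 of H1, 9 of H2A, 8 of H2B and 5 of H3). The 9 H4 stem-loops found differed from all 33 others in the stem, which there reads GGCCC with GGGCC in place of GGCTC with GAGCC. Where no match is named, only these letters are missing from the annotated transcript. In 22 of the 42 genes more than 100 annotated bases followed the stem-loop.

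The RefSeq promoter windows (GRCm38.p6, 250 bases before to 50 after the start) were available for 62 of the genes. Searched on both strands, TATAAA stood in 35 of them (56.5%, against 13.6% of all 32851 windows), CCAAT in 53 (85.5% against 37.4%), ATTTGCA, the first letters of the octamer, in 13 (against 4.02%), and AAACACA, the H1 box, in 9 (14.5% against 7.18%). A base could count for 2 motifs where runs overlap. CCAAT was present in every H1, H2A, H2B and H3 window and in 3 of 12 H4 windows, ATTTGCA was found in 7 H2A and 6 H2B windows and in 0 of the others, and AAACACA in 5 of 6 H1 windows. Of the 5 H1 genes that were tested, 3 windows are shown, those of the genes with the largest difference between groups (Hist1h1a), the next largest (Hist1h1e) and the smallest (Hist1h1d). Capitals mark the 4 motifs on either strand. The windows are chr13:23763418-23763717 on the plus strand, chr13:23622509-23622808 on the minus strand and chr13:23554782-23555081 on the plus strand, in the order given.
Hist1h1a: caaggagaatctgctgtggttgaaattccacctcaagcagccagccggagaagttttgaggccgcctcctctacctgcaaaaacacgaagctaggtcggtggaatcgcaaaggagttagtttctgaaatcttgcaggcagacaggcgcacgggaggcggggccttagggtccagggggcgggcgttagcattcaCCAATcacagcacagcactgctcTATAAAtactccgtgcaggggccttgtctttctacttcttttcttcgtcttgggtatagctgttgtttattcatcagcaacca
Hist1h1e: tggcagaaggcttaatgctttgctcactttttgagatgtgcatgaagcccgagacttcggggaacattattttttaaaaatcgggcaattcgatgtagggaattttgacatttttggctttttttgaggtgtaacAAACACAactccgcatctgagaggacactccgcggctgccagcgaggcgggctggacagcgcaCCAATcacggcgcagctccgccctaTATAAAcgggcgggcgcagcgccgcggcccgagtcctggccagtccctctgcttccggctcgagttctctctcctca
Hist1h1d: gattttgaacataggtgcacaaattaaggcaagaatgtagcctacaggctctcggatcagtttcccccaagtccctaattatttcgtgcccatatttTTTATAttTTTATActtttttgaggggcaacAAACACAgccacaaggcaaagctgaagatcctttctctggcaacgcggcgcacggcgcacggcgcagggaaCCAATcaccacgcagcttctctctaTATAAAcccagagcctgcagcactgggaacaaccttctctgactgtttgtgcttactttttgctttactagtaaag
All 3 windows hold CCAAT and TATAAA close to the start. AAACACA stands in the Hist1h1e and Hist1h1d windows, and these letters are not in the Hist1h1a window.

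Depth was 61.4 to 73.0 Mreads per control library and 50.3 to 72.3 Mreads per Atad2 library, so that a count of 0 allowed a level of up to 0.0411 to 0.0596 RPM (3 reads per library, counting error only). Atad2 itself, which checks the labels, stood at 14.66, 14.74, 14.67 and 14.61 in the control and 11.87, 11.77, 12.05 and 12.05 in the Atad2 group on the log2(normalized count + 1) scale used throughout (log2 fold change -2.73 ± 0.05 SE, limma adjusted p = 4.58e-20). Among 14703 genes with a mean above 3 on that scale, limma called 60.4% at an adjusted p under 0.05, 30.8% higher and 29.6% lower in the Atad2 libraries. Of 8 myoblast markers 3 were higher and 5 lower, with a median log2 fold change of -0.60. Myod1 rose from 12.61 ± 0.06 to 12.86 ± 0.06 and Des from 14.74 ± 0.05 to 15.12 ± 0.06 (SD, n = 4). Cdh15 fell from 12.71 ± 0.05 to 11.75 ± 0.11, Myf5 from 9.54 ± 0.15 to 8.26 ± 0.13 and Chrna1 by 0.25 ± 0.04. Pax7 and Msc, which also fell, had means of 1.44 and 2.51 in the Atad2 group. They passed the filter on low values only through their control levels of 4.70 and 5.80.

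Most replication-dependent histone genes lay close to their control level after Atad2 shRNA. Of the 65 genes tested, 6 rose after Atad2 shRNA, 12 fell and 47 did not pass the test, so that 27.7% were called against 60.4% of all genes. Among all genes whose mean level lay between 8 and 15, the range in which 62 of the histone genes lie, 66.1% were called (39.4% higher and 26.7% lower), against 27.4% of those 62 histone genes (6 higher and 11 lower). The median log2 fold change of the histone genes was -0.012, with quartiles of -0.087 and 0.059, and over all genes tested it was -0.0095, with quartiles of -0.35 and 0.20. At levels of 8 to 15 the median was -0.013 for the 62 histone genes and 0.0455 for all genes, the latter with quartiles of -0.152 and 0.2155. None of the 65 reached a 2-fold change, which 1792 of the 14703 genes did, but only 352 of the 10288 with a mean level of 8 to 15. Fewer cells that express these genes and less histone mRNA per cell cannot be told apart in bulk RNA.

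That a gene was not called does not show that it did not differ, and the intervals set the limit. The 95% interval of the log2 fold change lay within 0.5 on either side of 0 for 58 of the 65 histone genes (89.2%), against 56.1% of all genes tested and 77.2% of those with a mean level of 8 to 15. Within 0.25 on either side lay 46 of the 65 (70.8%), against 27.5% and 38.4%. The 47 uncalled genes ranged from -0.22 to 0.29. The called histone genes also differed little: their median absolute log2 fold change was 0.167, against 0.357 over all called genes, and 4 of the 18 exceeded 0.3. The 4 control values did not overlap the 4 Atad2 values in 5 of the 65 genes with higher and 5 with lower Atad2 values, against 27.7% and 25.8% of all genes tested (53.5% in all). Under quantile normalization 5 histone genes were higher and 24 lower, against 28.8% and 27.6% of all genes. Without an intensity trend in the fit, 10 of the 18 calls were lost: besides those named with it below, the calls of Hist1h2ad, Hist1h2ah, Hist1h2bb, Hist2h2bb, Hist3h2ba, Hist1h4a and Hist1h4i (limma adjusted p 0.0558 to 0.213). Those of Hist1h2bb, Hist1h4a and Hist1h4i were also lost with no filter on low values (0.0592 to 0.0925).

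**Figure D1:**
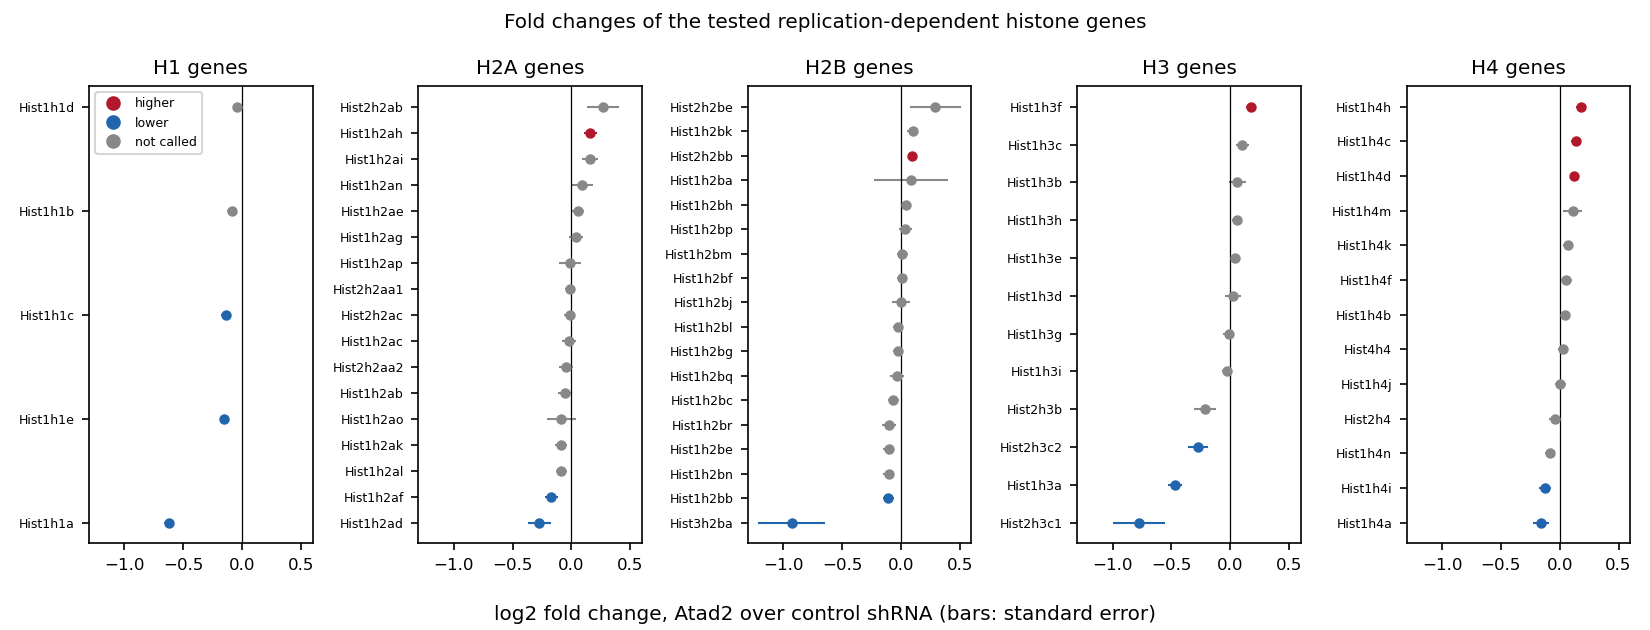
Log2 fold change of each tested gene, Atad2 over control shRNA, by histone class, with bars for the standard error of the fit over 4 and 4 libraries. Red and blue points passed the limma test (higher and lower), and grey points did not. Most points lie near 0, and 4 blue ones lie beyond -0.3, led by Hist3h2ba at -0.93 and Hist2h3c1 at -0.78.

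Linker histone H1 was the class in which all 5 tested genes had negative values, with a median of -0.14, and 3 of them fell and 0 rose, a share near the 60.4% called over all genes. The largest of these differences was that of Hist1h1a (chromosome 13, 23763666 to 23764406, GRCm38, single exon), which encodes the H1.1 subtype. Its levels were 13.95, 13.95, 13.82 and 13.94 in the control libraries and 13.34, 13.39, 13.14 and 13.31 in the Atad2 libraries. Every Atad2 library was below every control library. The gene fell by 0.62 ± 0.04 on the log2 scale, to a level 1.54-fold lower (limma adjusted p = 1.4e-10), with read counts of 15553 to 18582 in the controls and of 7038 to 11367 after Atad2 shRNA. None of its 50-base windows is shared with another annotated gene.

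Hist1h1e, which encodes H1.4, fell by 0.15 ± 0.04 (limma adjusted p = 0.00134). Its levels were 14.42, 14.44, 14.29 and 14.35 in the control libraries and 14.29, 14.27, 14.18 and 14.15 in the Atad2 libraries. The groups did not overlap. Hist1h1e overlaps exons of Hist1h2be and Gm11398 on the same strand. Counted as for Hist1h1a, 32.0% of its windows are shared with other genes, and 23.8% with Hist1h2be. The part of shared reads in its decrease was not tested. Hist1h1c, which encodes H1.2, stood at 14.06, 14.10, 13.92 and 14.07 in the control libraries and 13.88, 14.02, 13.83 and 13.86 in the Atad2 libraries. Its decrease of 0.14 ± 0.04 passed the test (limma adjusted p = 0.00811) although Atad2 replicate 2 lay within the control range, and the call was lost without an intensity trend in the fit (0.0776).

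The 2 other tested H1 genes did not pass. Hist1h1b, which encodes H1.5, had 14.34, 14.33, 14.24 and 14.37 in the control libraries and 14.32, 14.28, 14.17 and 14.16 in the Atad2 libraries, a difference of -0.087 ± 0.038 (limma adjusted p = 0.056, 95% interval -0.17 to -0.01). Hist1h1d, which encodes H1.3, had 13.80, 13.78, 13.67 and 13.81 in the control libraries and 13.79, 13.80, 13.63 and 13.67 in the Atad2 libraries. Its difference was -0.039 ± 0.040 (limma adjusted p = 0.416, interval -0.12 to 0.04), and its groups overlap widely. All 5 H1 genes passed as lower under quantile or cyclic loess normalization.

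The testis-specific linker histone gene Hist1h1t had too few reads to be tested and was singled out after its values were seen. It had 14, 16, 14 and 15 reads in the control libraries and 2 in each Atad2 library. Scaled to the libraries, its control level was 6.47 times that in the Atad2 libraries (counting interval 3.08 to 15.7), and no test is given because the gene was chosen for this difference. Its neighbour Hist1h4c, 910 bp away, was among the genes that rose.

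**Figure D2:**
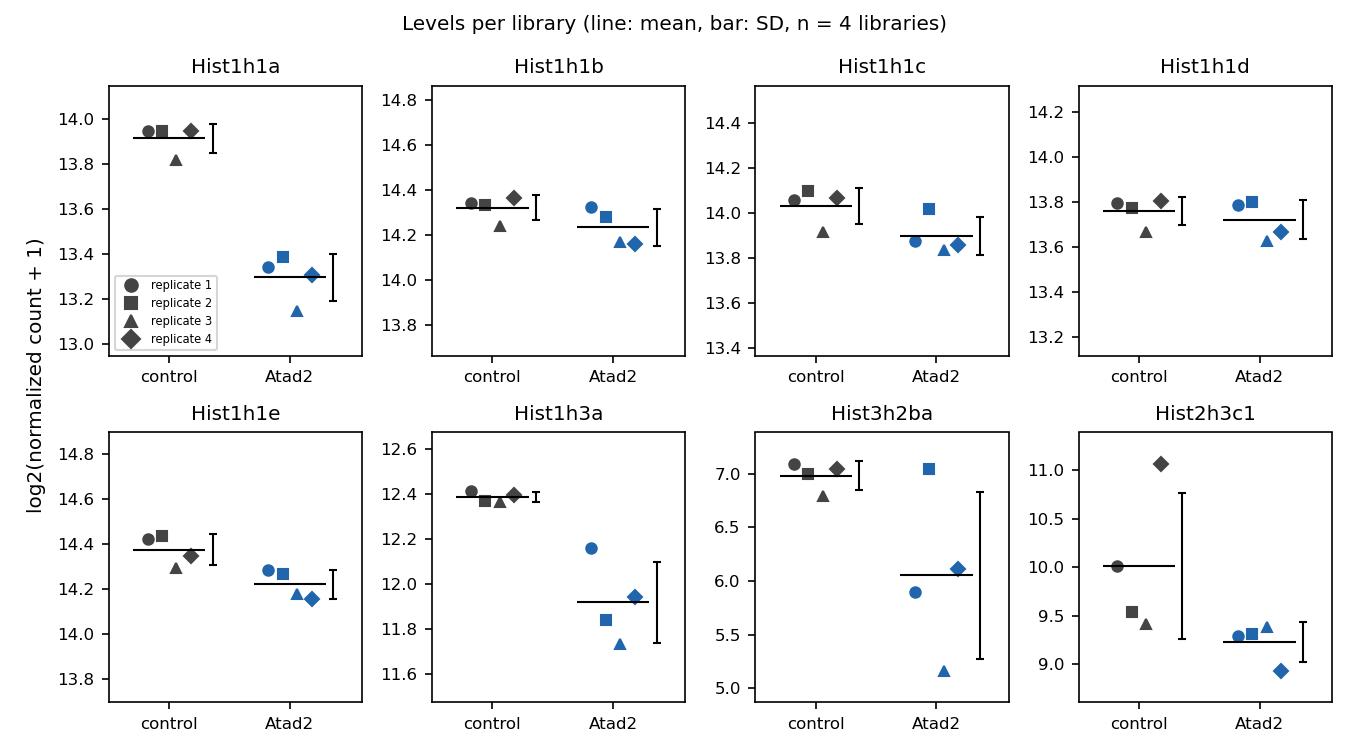
Levels of the 5 tested H1 genes and of Hist1h1a's neighbour Hist1h3a, Hist3h2ba and Hist2h3c1 in each library, on the log2(normalized count + 1) scale; lines are means, bars SD over 4 libraries, and symbols the replicate numbers. Axes do not start at 0 and differ between panels. Hist1h1a lies near 13.9 in the controls and near 13.3 in the Atad2 libraries, and control replicate 4 stands far above the other controls for Hist2h3c1.

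H2A genes, whose product pairs with H2B on the outside of the nucleosome, had a median of -0.0145: of 17 tested, 1 rose, 2 fell and 14 did not pass, and 10 of the 17 had an interval within 0.25 on either side of 0. The best covered of them were not called. Hist1h2ak had 13.06, 13.02, 12.91 and 13.08 in the control libraries and 13.06, 12.99, 12.77 and 12.92 in the Atad2 libraries, a difference of -0.086 ± 0.050. Hist1h2al, which GENCODE lists as a processed pseudogene, differed by -0.087 ± 0.047, Hist2h2aa1 by -0.012 ± 0.040 and Hist2h2ac by -0.0145 ± 0.046. Their values overlapped between the groups, and limma adjusted p-values were 0.115 to 0.816.

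The 2 H2A genes that fell were Hist1h2ad and Hist1h2af. Hist1h2ad stood at 9.43, 9.31, 9.32 and 9.77 in the control libraries and 9.27, 9.15, 9.08 and 9.24 in the Atad2 libraries, a decrease of 0.27 ± 0.10 without overlap (limma adjusted p = 0.0195). That call was lost without control replicate 4 (0.115) or without Atad2 replicate 3 (0.0555), and under quantile (0.184) and cyclic loess normalization (0.165). Hist1h2af stood at 11.85, 11.73, 11.70 and 11.87 in the control libraries and 11.79, 11.57, 11.58 and 11.52 in the Atad2 libraries, a decrease of 0.17 ± 0.05 with overlapping values (limma adjusted p = 0.00967), and this call was lost without an intensity trend (0.0729).

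Hist1h2ah was the H2A gene that rose. Its levels were 10.53, 10.55, 10.66 and 10.43 in the control libraries and 10.70, 10.73, 10.60 and 10.80 in the Atad2 libraries, a difference of 0.16 ± 0.06 (limma adjusted p = 0.0227), and Atad2 replicate 3 lay within the control range. The call was lost without control replicate 4 (0.0933), Atad2 replicate 2 (0.0527) or Atad2 replicate 4 (0.0648). Hist2h2ab had a larger difference that did not pass, from 8.03 ± 0.13 to 8.30 ± 0.28 (0.27 ± 0.14, limma adjusted p = 0.0928). The called H2A genes share much sequence. Of the 50-base windows of Hist1h2ah 92.1% are shared with other genes, and 87.4% with Hist1h2ad, which fell. For Hist1h2af these shares are 94% and 79.7% with Hist1h2ad, and for Hist1h2ad 67.1% and 59.5% with Hist1h2ah. The part of shared reads in these opposite calls was not tested. Hist1h2aa and Hist3h2a were not tested: the first had 2 reads in Atad2 replicate 2 and 0 elsewhere, and the second had 0 reads in all libraries.

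Among the H2B genes 1 rose, 2 fell and 15 of 18 did not pass, with a median of -0.0115. Hist3h2ba, which lies outside the large clusters (chromosome 11, 58948920 to 58949533), had the largest difference among the 65 tested genes and few reads (118 to 154 in a control and 27 to 137 in an Atad2 library). Its levels were 7.09, 7.00, 6.79 and 7.04 in the control libraries and 5.89, 7.05, 5.16 and 6.11 in the Atad2 libraries. Atad2 replicate 2 lay within the control range and the other Atad2 libraries lay below it. The gene fell by 0.93 ± 0.28 (limma adjusted p = 0.00792), and the call was lost under quantile normalization (-0.48, 0.172) and cyclic loess normalization (-0.55, 0.116).

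The H2B gene that rose was Hist2h2bb, with 14.66, 14.64, 14.56 and 14.66 in the control libraries and 14.78, 14.78, 14.67 and 14.68 in the Atad2 libraries and no overlap. Its difference was 0.099 ± 0.034 (limma adjusted p = 0.0162), and it turned to -0.022 under quantile and -0.018 under cyclic loess normalization. The call was also lost without control replicate 3 (0.0701), Atad2 replicate 1 (0.0618) or Atad2 replicate 2 (0.069). All 50-base windows of Hist2h2bb are shared with the annotated gene Gm20628 on the other strand, so the origin of its reads is uncertain.

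Hist1h2bb had 12.53, 12.52, 12.46 and 12.57 in the control libraries and 12.44, 12.46, 12.27 and 12.49 in the Atad2 libraries, with overlap in Atad2 replicate 4. It fell by 0.11 ± 0.04 (limma adjusted p = 0.0427), a call that was lost without control replicate 1 (0.0849), 2 (0.069) or 4 (0.123), or without Atad2 replicate 1 (0.0507) or 3 (0.212). The best covered H2B genes besides Hist2h2bb were not called: Hist1h2be differed by -0.10 ± 0.05 (limma adjusted p = 0.0543), Hist1h2bh by 0.046 ± 0.040 and Hist1h2bg by -0.028 ± 0.039. Hist2h2be rested on few reads, and its difference of 0.29 ± 0.22 was within the spread of the Atad2 libraries (6.65 ± 0.41).

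H3, which forms the centre of the nucleosome together with H4, had 3 genes that fell, 1 that rose and 8 that did not pass, with a median of 0.0049 that turned to -0.087 under quantile normalization. Hist1h3a (chromosome 13, 23761853 to 23762386) is the H3 gene with the smallest adjusted p. Its levels were 12.42, 12.37, 12.37 and 12.40 in the control libraries and 12.16, 11.84, 11.74 and 11.94 in the Atad2 libraries. The control libraries lay within a narrow band and every Atad2 library was below them, with Atad2 replicate 1 closest. Hist1h3a fell by 0.47 ± 0.06, to a level 1.38-fold lower (limma adjusted p = 1.02e-06). Of its 50-base windows 49.5% are shared with other genes, most with Hist1h3h.

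Hist2h3c1 and Hist2h3c2 encode the same type of H3 from neighbouring copies on chromosome 3. Hist2h3c1 had 10.02, 9.54, 9.42 and 11.07 in the control libraries and 9.30, 9.32, 9.39 and 8.93 in the Atad2 libraries, a decrease of 0.78 ± 0.22 (limma adjusted p = 0.00482). The groups did not overlap, but the lowest control and the highest Atad2 library were close, and control replicate 4 stood far above the rest. Without control replicate 4 the difference was -0.43 (limma adjusted p = 0.0079). The call was lost without an intensity trend (0.0988) or with a robust prior (0.126).

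Hist2h3c2 had 9.71, 9.83, 9.81 and 9.83 in the control libraries and 9.75, 9.53, 9.28 and 9.52 in the Atad2 libraries, with Atad2 replicate 1 in the control range. Its decrease of 0.27 ± 0.09 passed (limma adjusted p = 0.00916), though not under quantile (0.0611) or cyclic loess normalization (0.0545). These copies and Hist2h3b share sequence with each other and with the annotated gene Gm20634 or Gm20628, which the table does not list under those symbols. Reads summed over the 3 copies came to 4850 ± 1333 normalized counts in the control and 3726 ± 243 in the Atad2 group (SD, n = 4), a ratio of 0.768 that became 0.890 without control replicate 4.

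Hist1h3f was the H3 gene that rose, from 12.95 ± 0.09 to 13.12 ± 0.04 without overlap (0.17 ± 0.04, limma adjusted p = 0.000881), a call that was lost under quantile (0.156) and cyclic loess normalization (0.126). Among the best covered H3 genes, Hist1h3e differed by 0.037 ± 0.035, Hist1h3c by 0.10 ± 0.05 and Hist1h3i by -0.029 ± 0.043, and none of these 3 passed (limma adjusted p 0.103 to 0.581).

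H4 had 3 genes that rose, 2 that fell and 8 that did not pass, with a median of 0.043, but under quantile or cyclic loess normalization 0 rose, 4 fell and the median was -0.063 or -0.052. Hist1h4h had 13.13, 13.03, 13.12 and 13.15 in the control libraries and 13.25, 13.33, 13.21 and 13.37 in the Atad2 libraries, a difference of 0.18 ± 0.04 (limma adjusted p = 0.000394). Hist1h4c had 12.13, 12.13, 12.03 and 12.16 in the control libraries and 12.29, 12.32, 12.18 and 12.22 in the Atad2 libraries, a difference of 0.14 ± 0.04 (limma adjusted p = 0.00562). Hist1h4d, with 14.14, 14.12, 14.10 and 14.18 in the control libraries and 14.36, 14.25, 14.21 and 14.22 in the Atad2 libraries, differed by 0.12 ± 0.03 (limma adjusted p = 0.00389). In each of these 3 genes every Atad2 library was above every control, and each call was lost under quantile (0.135, 0.217 and 0.629 in this order) and cyclic loess normalization (0.101, 0.244 and 0.812).

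The H4 genes that fell did so by little. Hist1h4a went from 12.36 ± 0.15 to 12.20 ± 0.16, with overlap (-0.16 ± 0.07, limma adjusted p = 0.0458), and the call was lost without control replicate 1, 2 or 4 or without Atad2 replicate 3 or 4 (0.119 to 0.157). Hist1h4i went from 11.24 ± 0.08 to 11.11 ± 0.07, with overlap (-0.12 ± 0.05, limma adjusted p = 0.0421), and the call was lost without any single library other than control replicate 3 and Atad2 replicate 1 (0.0521 to 0.138). The remaining H4 genes that the naming rule gives, Hist1h4f and Hist4h4, differed by 0.052 ± 0.051 and 0.026 ± 0.040 and did not pass.

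The summed normalized counts show the classes as pools of transcripts. H1 transcripts summed to 89766, 90171, 82282 and 89174 in the control libraries and to 80029, 81201, 73299 and 74522 in the Atad2 libraries. The Atad2 sums were all below the controls, with means of 87848 ± 3734 and 77262 ± 3932 (SD, n = 4) and a ratio of 0.879. Without Hist1h1a the ratio was 0.928 and the groups overlapped. For the core histones the ratios were 0.973 (H2A), 1.01 (H2B), 0.990 (H3) and 1.03 (H4), and all 4 pairs of groups overlapped. All 68 genes together held 0.565% to 0.609% of the normalized counts of a control library and 0.523% to 0.568% of those of an Atad2 library. No test was made of these sums.

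**Figure D3:**
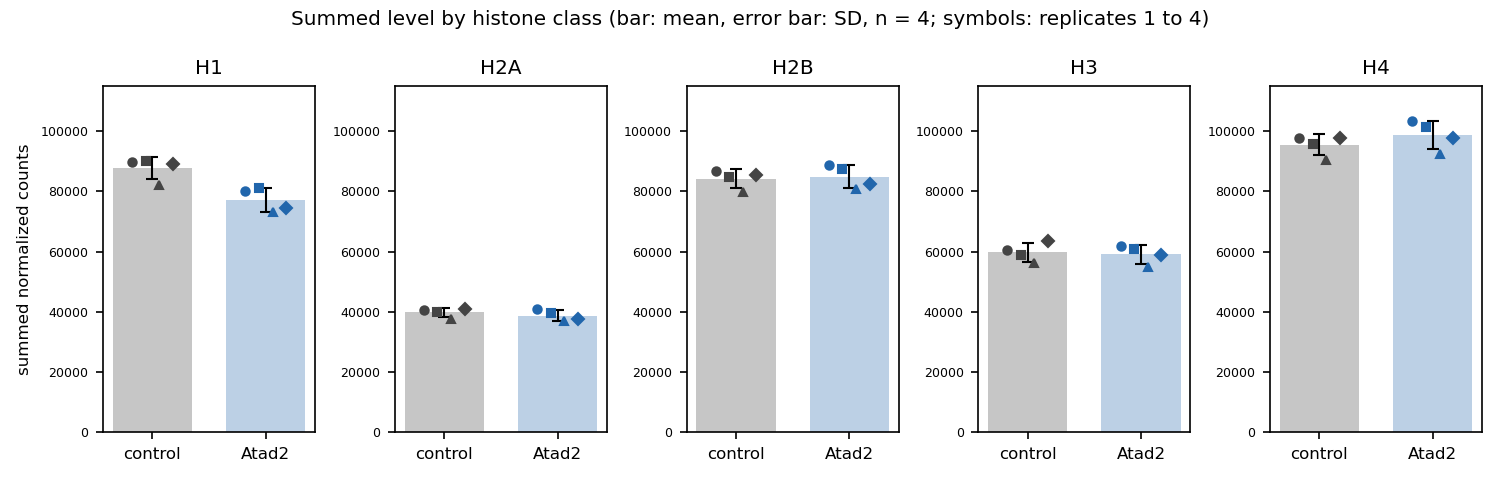
Summed normalized counts of all genes of a class per library, with bars for the mean and error bars for SD over 4 libraries. The H1 sums of the Atad2 libraries lie below all control sums, and the sums of the other classes overlap between groups.

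In some libraries many histone genes were shifted in the same direction against the other libraries of the group. Control replicate 3 was the lowest control library for 47 of 65 histone genes, with a median deviation of -0.084 from the gene's group mean, and Atad2 replicate 3 the lowest Atad2 library for 43, with a median deviation of -0.081. Over all genes tested these libraries were lowest for 26.2% and 26.9%, with median deviations of -0.002 and -0.0053. Scaling of the libraries holds the medians over all genes together (10.466 to 10.477), so they do not show how far other gene sets vary between libraries. Atad2 replicates 1 and 2 had median deviations of 0.065 and 0.045, and Atad2 replicate 4 -0.042. Without Atad2 replicate 3, 10 histone genes were higher and 8 lower. The calls of either direction among the histone genes differ by no more than 0.18 on the log2 scale except in 6 genes, and the part of these library shifts in them was not tested.

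**Figure D4:**
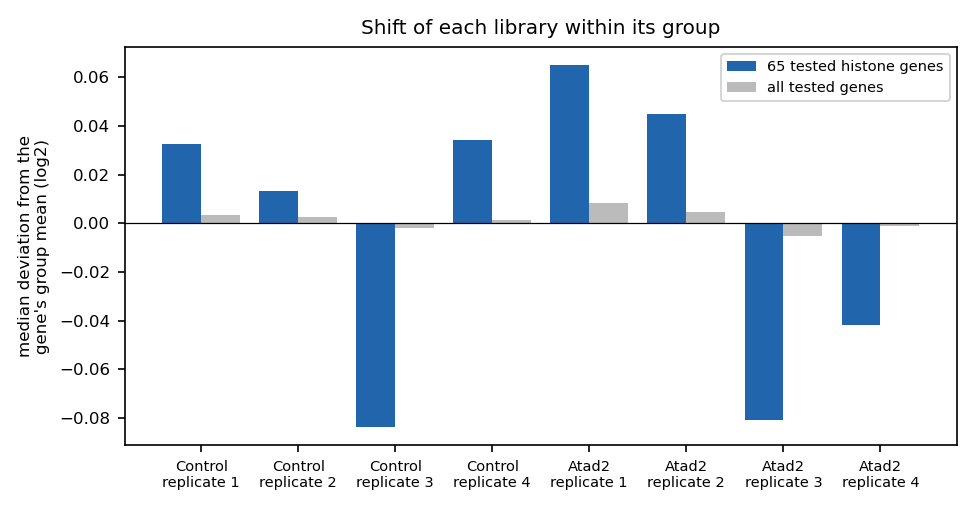
Median deviation of each library from the gene's own group mean, in log2 units, over the 65 tested histone genes (blue) and over all genes tested (grey). Both replicates numbered 3 lie near -0.08 for the histone genes, while the values over all genes stay within 0.009 of 0.

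In the Hist1 cluster on chromosome 13 the number of calls differed between stretches, against 60.4% called over all genes tested and 27.7% of the histone genes. The cluster was divided at gaps of over 100 kb, a division chosen after the values were seen. In the stretch from Hist1h2bl to Hist1h2br (21715763 to 21837530) all 18 genes were tested and 0 were called, with values from -0.10 to 0.16. That 0 depends on the threshold and the processing. Hist1h1b, Hist1h2ai and Hist1h2bn had limma adjusted p-values of 0.056 to 0.0665. Hist1h1b, Hist1h2ak and Hist1h3i passed under 7, 5 and 2 of 20 alternatives. In the 5 genes from Hist1h2ah to Hist1h2bj 1 was higher and 1 lower. In the stretch from Hist1h4h to Hist1h1a (23531050 to 23764406) 28 genes were tested, of which 4 were higher and 8 lower, among them both of the strongest calls. Genes share more sequence with other copies in the first stretch than in the last (median 86.1% against 40.4% of 50-base windows), and the part of this in the counts was not tested.

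Hist1h1a and Hist1h3a are neighbours at the end of that stretch. They are transcribed away from each other, with starts 1280 bp apart. Next to Hist1h3a, after 623 bp, lies Hist1h4a, whose smaller decrease barely passed (limma adjusted p = 0.0458). That call was lost in 11 of 20 alternatives, among them a robust prior (0.206) and limma-voom (0.0541). A further 3283 bp away lies Hist1h4b, which did not pass (12.39 ± 0.06 against 12.43 ± 0.08). No test of position was made, and the calls of adjacent genes are not independent where their reads are shared.

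**Figure D5:**
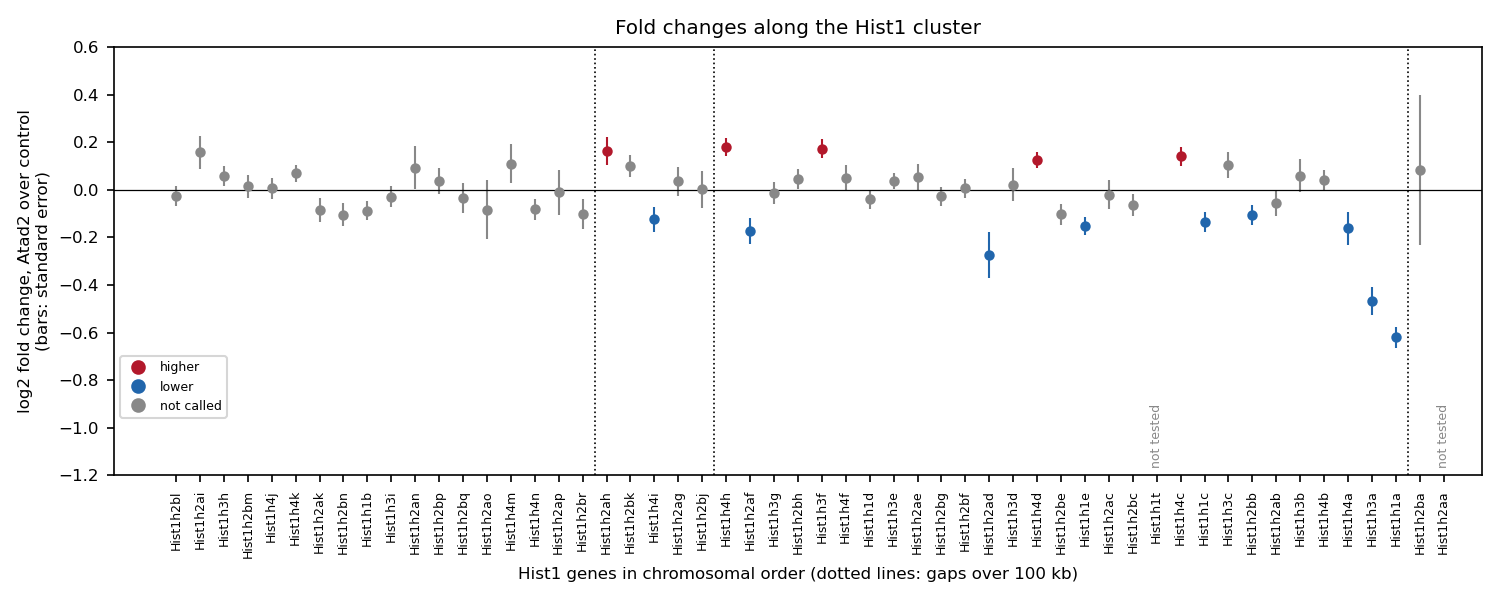
Log2 fold change, Atad2 over control shRNA, of the Hist1 genes in the order in which they lie on chromosome 13, with bars for the standard error and dotted lines at gaps of over 100 kb. The genes of the first stretch lie near 0, and Hist1h4a, Hist1h3a and Hist1h1a at the end of the third fall to -0.16, -0.47 and -0.62. The Hist1h4a call was lost in 11 of 20 alternatives.

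The lists of other genes were described in the same fit. Their counts stand against 30.8% higher and 29.6% lower over all genes tested, and against 39.4% and 26.7% of those at levels of 8 to 15. Of 30 genes for transcription and 3′ processing of histone mRNA 18 rose and 2 fell (median 0.15), and under quantile or cyclic loess normalization 13 were higher and 5 lower. Npat, the coactivator of histone transcription, rose by 0.12 ± 0.04 (limma adjusted p = 0.0189), and Slbp, the stem-loop binding protein gene, fell by 0.12 ± 0.05 (limma adjusted p = 0.0272). Cpsf2, a subunit of the cleavage complex, rose by 0.35 ± 0.03, Snrpb, a core protein of spliceosomal snRNPs, by 0.39 ± 0.03 and Srrt, which encodes the cap-binding partner ARS2, by 0.30 ± 0.03. Cstf2t, a paralog of a cleavage stimulation subunit, fell by 0.79 ± 0.04.

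Of 17 replication-independent histone variant genes, whose expression is not confined to S phase, 11 were tested, 5 rose and 5 fell. Under quantile normalization 4 were higher and 6 lower. The replacement H3.3 genes H3f3a and H3f3b rose by 0.13 ± 0.03 and 0.37 ± 0.03, H2afx, whose product marks DNA breaks when phosphorylated, by 0.17 ± 0.03 and H2afz by 0.22 ± 0.03 (limma adjusted p at most 0.00126). H3f3c rose as well, by 0.24 ± 0.09. The 5 that fell include 3 variants of H2A, H2afv (by 0.25 ± 0.04), H2afy, the macroH2A gene (by 0.22 ± 0.04), and H2afj (by 0.33 ± 0.07), and both linker variants tested. Of these H1f0, which encodes the H1 of resting and differentiated cells, stood at 13.04 to 13.18 in the control and 11.99 to 12.04 in the Atad2 libraries and fell to a level 2.15-fold lower (limma adjusted p = 6.14e-16), and H1fx fell from 10.62 ± 0.06 to 10.01 ± 0.14 (-0.61 ± 0.07, limma adjusted p = 1.08e-07).

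S phase is the phase in which the histone genes are transcribed. Of 54 genes of S phase and DNA replication 27 rose and 9 fell (median 0.084), so that 66.7% were called, near the 66.1% of all genes at levels of 8 to 15. Under quantile normalization 15 were higher and 16 lower. Mcm7, a subunit of the replicative helicase, rose by 0.54 ± 0.04, Cdt1, a licensing factor, by 0.56 ± 0.04 and Pcna, the sliding clamp, by 0.39 ± 0.03. Tyms, thymidylate synthase, fell by 0.38 ± 0.04 and E2f7, a repressor of E2F targets, by 0.45 ± 0.04.

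Of 30 mitosis genes 11 rose and 6 fell (median 0.046), 56.7% of the list against 60.4% of all genes tested, and under quantile normalization 3 were higher and 12 lower (median -0.060). Ube2c rose by 0.38 ± 0.03 and Anln, an organiser of cytokinesis, fell by 0.24 ± 0.03. Of 28 genes for histone chaperones and assembly factors 21 rose and 3 fell (median 0.17), and under quantile or cyclic loess normalization 14 were higher and 5 lower. Ipo4, an importer of histones, rose by 0.50 ± 0.03, Npm1 by 0.48 ± 0.04 and Anp32e, a chaperone of H2A.Z, by 0.44 ± 0.03, while Asf1b, which carries newly made H3 and H4, fell by 0.14 ± 0.04 and Cabin1 by 0.21 ± 0.04. Several genes stand in more than 1 list.

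Since many histone mRNAs carry no poly(A) tail, RNAs that lack one were listed too. Poly(A) selection or its absence is not given in the labels. Of 18 such RNAs tested 10 rose and 2 fell. The median log2 fold change of the 18 was 0.26, with values from -1.32 to 1.04. Rmrp and Rpph1, the RNAs of the RNase MRP and RNase P enzymes, stood at 18.23 ± 0.03 and 18.07 ± 0.13 in the controls and rose by 0.38 ± 0.04 and 0.51 ± 0.05, and Terc, the telomerase RNA, rose by 0.70 ± 0.09. Their part in the histone results was not tested.

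Myotube markers differed between the groups, and their part in the histone values was not tested. The summed level of 12 markers was 490 to 667 normalized counts in the control and 968 to 1289 in the Atad2 group. Of those whose mean lay above 3 in both groups, Myog, the regulator myogenin, rose from 4.79 ± 0.26 to 6.94 ± 0.33, Tmem8c, the fusion protein gene myomaker, from 4.32 ± 0.26 to 7.20 ± 0.08 and Tnnt3, a troponin gene, from 3.62 ± 0.89 to 5.95 ± 0.52, while Acta1 did not pass (-0.09 ± 0.12). Myh3 and Myh1, myosin heavy chain genes, stood at 2.14 ± 1.05 and 1.66 ± 1.08 in the control and 7.58 ± 0.33 and 6.43 ± 0.31 in the Atad2 group, and they passed the filter only through the latter. Leukocyte markers summed to 239 to 302 and 548 to 678 with 3 of 8 at 0 in all libraries, and endothelial markers to 56.4 to 74.4 and 42.8 to 55.7 with 2 of 8 at 0. Osteoblast markers summed to 6466 to 7130 and 8842 to 9702, with 1 of 8 at 0. Adipocyte markers summed to 2951 to 3268 and 3887 to 4490 with 3 of 8 at 0, and here the most abundant, Pparg, rose by 0.52 ± 0.05 while Fabp4 and Lipe fell by 1.80 ± 0.45 and 0.40 ± 0.13. Fibroblast markers summed to 23178 to 25636 and 17103 to 18408 with 1 of 8 at 0, and here the most abundant, Gsn, fell by 0.83 ± 0.04 while Pdgfra and Dcn rose to levels 2.48-fold and 1.67-fold higher.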

How the data were processed

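Total RNA of 8 C2C12 libraries was sequenced, 4 per shRNA group. As the authors deposited them, the values are log2(normalized count + 1) to 3 decimals, where the normalized count is a read count divided by a size factor per library; this form was read from the values, of which 100% of the low ones were whole reads within 0.1. The submitters' processing notes name DESeq2 (no version), HTSeq 0.13.5, SAMtools 1.1, bcl2fastq 2.20 and the build mm10. For the aligner, annotation, strand setting and treatment of reads that match several copies nothing is stated in the sources used here. Counts of near-identical or overlapping histone genes are therefore uncertain: 35 of 68 share more than 50% of their 50-base windows with another gene (median 54.5%), and 25 overlap an exon of another gene. A fold change on this scale understates that of weak genes.

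Genes with a mean above 3 were tested with limma 3.58.1 (lmFit, eBayes with trend) in R 4.3.3, two-sided, with Benjamini-Hochberg adjustment over all 14703 genes and a threshold of 0.05. Tables and plots were made in Python 3.11.15 with NumPy 2.4.6, pandas 2.3.3, SciPy 1.17.1 and matplotlib 3.10.9. Summed levels are sums of converted-back normalized counts. Coordinates come from GENCODE M21, which matched all 68 genes.

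The members, the other lists and the tests were chosen with earlier results of these data known. Named in each class are the 4 genes of highest mean level and the 2 others of largest absolute change, besides all called genes. In each other list up to 3 called genes of the prevailing direction and up to 2 of the opposite one were eligible by adjusted p, with Atad2, Slbp, Npat, H3f3a, H3f3b, H2afx, H2afz and H1f0. Pax7, Msc, H3f3c, H2afv, H2afy, H2afj, Myog, Tnnt3, Acta1 and Hist1h1t were named after their values were seen. The levels that choose named genes are not per length and rank no gene against another.

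The fit was tested on simulated data with known changes. Results were recomputed with a filter at 5 or none, with an offset of 8, after median centring, quantile or cyclic loess normalization, with eBayes run robustly or without its trend, with the replicate block, with limma-voom on recovered reads, without single libraries, and with thresholds of 0.01 or at least 2-fold.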

Additional observations from a re-analysis of the deposited data

Results flagged for a closer look

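Within a group of 4 libraries, a value was picked out where the gap between the highest or lowest library and its nearest neighbour exceeded Dixon's 95% critical value for the group's range. Of 142 groups of values examined, 10 passed, and chance picks out about 1 in 20 groups. Control replicate 3 was the lowest control in 6 of the 10: for Hist1h1a at 13.817 (others 13.944 to 13.948), Hist1h2ag at 10.549, Hist1h3e at 13.362, Hist1h3f at 12.817, Hist1h4a at 12.139 and the summed H1 level at 82281.7 normalized counts (others 89173.7 to 90171.3). Without that library Hist1h1a remained called as lower. Hist2h3b was highest in control replicate 4 at 11.887 (others 11.252 to 11.307), the library that is also highest for Hist2h3c1, and highest in Atad2 replicate 1 at 11.339. Atad2 replicate 1 was also the highest Atad2 library for Hist1h4b, at 12.545. Hist2h3c2 was lowest among the controls in replicate 1, at 9.706.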

How the results depend on the processing

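Hist1h1a, Hist1h1e and Hist1h3a were called lower in all 18 refits. Over the 18 called histone genes, 279 of 360 values under alternatives kept direction and call, 79 kept the direction only and 2 reversed: Hist2h2bb at -0.0217 under quantile and -0.0185 under cyclic loess normalization. Quantile normalization gave 24 lower histone genes and cyclic loess 23 (5 higher each), so that the higher share of called histone genes went from 33.3% to 17.2% and 17.9% and their median from -0.012 to -0.075 and -0.079; 10 of the 18 calls were shared with each. Without trend 4 were lower, and with a 2-fold minimum 0 were higher and 0 lower. Leaving out 1 library gave 4 to 10 higher and 8 to 18 lower, the 10 without Atad2 replicate 3. The other listed genes, 89 higher and 27 lower, became 58 and 43 under quantile, 57 and 44 under cyclic loess, and 1 and 2 with a 2-fold minimum; leaving out 1 library gave 79 to 86 and 20 to 30. Ratios of summed levels under quantile normalization were 0.815 (H1), 0.945 (H2B), 0.932 (H3) and 0.964 (H4), and over the left-out libraries 0.861 to 0.895 (H1), 0.955 to 0.989 (H2A), 0.991 to 1.02 (H2B), 0.970 to 1.01 (H3) and 1.02 to 1.06 (H4). Atad2 ranged from -2.78 to -2.68 over left-out libraries. The cause of these shifts was not tested.

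Over all genes tested, the replicate numbers did not pair the libraries (correlation of same-numbered deviations -0.023 to 0.034). There 2 of 4 correlated best with their own number. Over the histone genes this correlation was -0.48 to 0.011, but a correlation does not see a shift common to all of them. The same-numbered median deviations of these genes (control, then Atad2) were 0.0325 and 0.065 for replicate 1 and 0.013 and 0.045 for replicate 2. They were -0.084 and -0.081 for replicate 3 and 0.034 and -0.042 for replicate 4. Pairing of the histone genes by number was therefore not decided. With the replicate block 8 histone genes were higher and 18 lower. For genes with few reads, such as Hist3h2ba, depth limits what can be seen.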

Other observations

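The histone genes were also described by features that their symbols do not give, chosen after the calls were known and without a test. Of 20 tested genes with a stem-loop and more than 100 annotated bases after it, 3 were higher and 7 lower, and of 20 with up to 100 annotated bases after it 1 was higher and 3 lower. Of 25 tested genes in which no stem-loop was found 2 were higher and 2 lower. Medians of the log2 fold change were -0.033, -0.0048 and -0.0105 in this order. Of 35 genes that share more than 50% of their windows with other genes 2 were higher and 4 lower, and of 30 that share up to 50% 4 were higher and 8 lower. Genes with TATAAA in the promoter window (34 tested, 2 higher and 7 lower) and without it (25 tested, 3 higher and 4 lower) had medians of -0.013 and -0.0105. Shared reads and genes of the same class make these groups overlap, so no difference between them is claimed.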
